A study of Mus musculus with 8 samples.

Results

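Fibroblast growth factors (FGFs) and their receptors were followed in muscle mesenchymal progenitors from rest to day 10 after injury. The genes were 5 ligands (Fgf1, Fgf2, Fgf7, Fgf10 and Fgf18), 4 receptors with a tyrosine kinase (Fgfr1 to Fgfr4) and Fgfrl1, a receptor without one. They were chosen by symbol, and all 10 were found, each on 1 of the 23846 rows of the deposited table. FACS was used to purify the cells from the whole muscle of C57BL/6J hindlimbs. In every library both copies of Hic1 carried a tamoxifen-inducible Cre (CreERT2) and 1 copy of Rosa26 carried a tdTomato reporter behind a floxed stop (Hic1CreERT2/CreERT2;Rosa26LSLtdTomato/+), so the reporter marks the cells that made Hic1 when tamoxifen was given and the cells derived from them. All mice had tamoxifen at 8 weeks of age (2.5 mg daily for 5 days, then 10 days without it), the quiescent ones included, and no library came from cells with an unmodified Hic1 locus. There was 1 library of quiescent cells and 1 each at days 1, 2, 3, 4, 5, 7 and 10 after notexin, a snake venom toxin that destroys muscle fibres. Whether animals were pooled is not stated in the labels.

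FGFs are secreted proteins that bind receptor tyrosine kinases together with heparan sulfate, a sugar chain on cell surface proteins. The bound receptor signals through adaptor proteins to the RAS and ERK kinases, and the pathway switches on its own inhibitors, among them the Sprouty proteins and the phosphatase DUSP6. In muscle, FGFs are known as mitogens of satellite cells and fibroblasts, and mesenchymal cells are a known source of several of the ligands.

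The table gives FPKM, fragments scaled by transcript length and by the mapped total, so levels can be compared between genes. The depth estimated from the steps of low values was between 10.65 and 28.45 M fragments (M, 1e6). The progenitor markers Pdgfra (77.0 to 153 FPKM), Ly6a (953 to 1682) and Cd34 (288 to 798) were present in all 8 libraries, and the defining markers of leukocytes (Ptprc, at most 2.31) and endothelium (Pecam1, at most 1.93) were low, though Tek, on the endothelial list, stood at 68.9 in quiescent. Macrophage markers summed to 34.7 FPKM in the quiescent library and to between 82.8 and 930 after injury, with the highest sums at days 3 and 5. Neutrophil markers summed to between 2.28 and 90.3 FPKM, red cell markers to between 46.3 and 301, and lymphocyte markers to at most 4.34. Of the 11 progenitor genes, 3 were higher and 6 lower than in quiescent on some day, Hic1 among them (52.2 FPKM in quiescent, 20.6 at day 1 and 36.9 at day 10). Each time point has 1 library, so the spread between animals is unknown, and no test and no p-value is given. Intervals in brackets cover counting error only, at 95%, from estimated fragments. In bulk RNA, fewer cells of a type and less RNA per cell cannot be told apart.

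No FGF gene was higher than in the quiescent library by the size used here, and 4 were lower on at least 1 day. A gene was called when log2(FPKM + 1) differed by 1 or more (a 2-fold change on that scale) and the higher library had at least 5 FPKM. Of the 10 genes, 6 reached 5 FPKM in any library, namely Fgf1, Fgf2, Fgf7, Fgf18, Fgfr1 and Fgfrl1. The 4 that fell were Fgf1, Fgf2, Fgf18 and Fgfr1. Shares of rows are taken over rows with 5 FPKM in at least 1 of the libraries compared, 8164 to 8845 rows per pair. Among the 9509 rows that reached 5 FPKM in any library, 15.7% were lower on some day and 32.9% were higher. At day 1, Fgf1 and Fgf18 were lower, 2 of the 6 FGF genes at 5 FPKM, where 12.5% of all rows were lower. At day 2 all 4 were lower, against 10.9% of all rows, and at day 3 the same 4 were lower, against 8.26%. Fgf2 was the 1 FGF gene still lower at day 4 (2.16% of all rows), day 5 (4.61%) and day 7 (2.45%). At day 10 the FGF genes held 0 lower calls, where 1.21% of all rows were lower. The background for higher calls, of which the FGF genes had 0 on every day, was 22.5%, 23.7%, 15.7%, 4.56%, 8.42%, 4.01% and 3.09% at the 7 days in order. A gene that reached 5 FPKM only in the quiescent library could be called lower but not higher. None of the 6 was such a gene, since each also reached 5 FPKM in an injured library. These counts are a description of 6 genes.

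Between neighbouring injured days the FGF genes held 2 calls, Fgf2 lower from day 1 to 2 and Fgf18 higher from day 3 to 4. Over all rows, the step from day 1 to 2 had 5.86% higher and 2.95% lower. The next step, to day 3, had 4.19% and 3.87%, and the step to day 4 had 3.44% and 4.89%. The later steps were smaller, with 1.53% higher and 0.723% lower to day 5, 0.840% and 1.89% to day 7, and 0.723% and 0.605% to day 10.

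**Figure D1:**
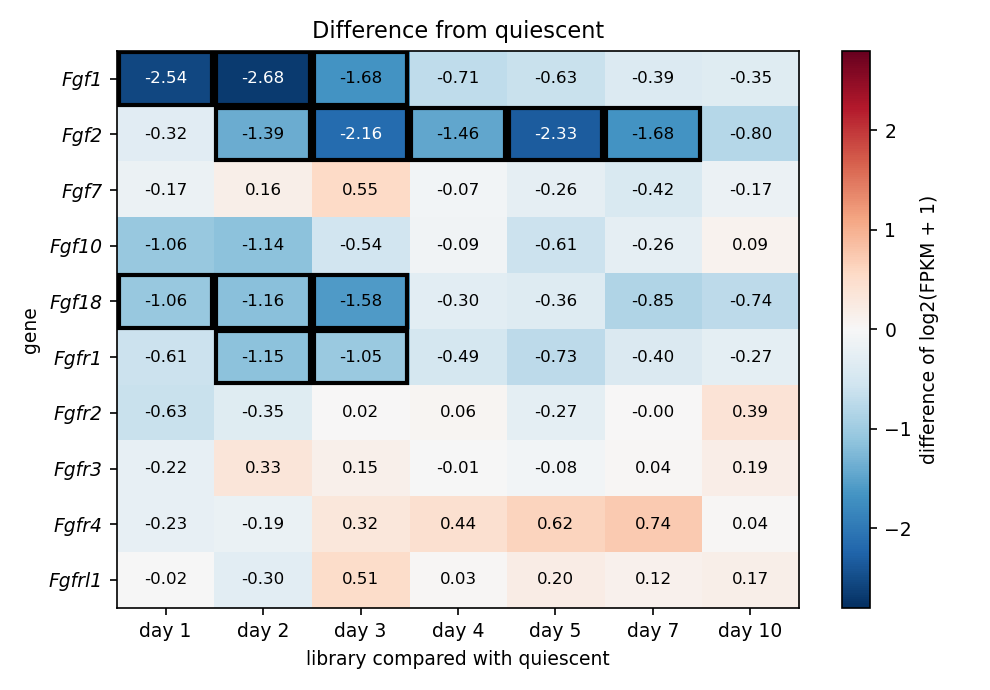
Difference of log2(FPKM + 1) between each injured library (columns) and the quiescent library, for the 10 FGF genes (rows), 1 library per column. Black frames mark the 13 differences that were called, all of them lower: Fgf1 and Fgf18 from day 1 to day 3, Fgf2 from day 2 to day 7, and Fgfr1 at days 2 and 3.

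The size of the falls moved with the scaling of the libraries. FPKM summed to 463650 in the quiescent library and to 718618 at day 2. Scaling by the median ratio shifted log2 values by -0.34, -0.37 and -0.27 at days 1 to 3, and scaling to a common sum by -0.54, -0.63 and -0.44, so the falls of the FGF genes became larger. Each scaling tried lowered every injured library against quiescent, so the sign of the 13 called differences could not change under any of them.

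Fgf1 had the largest difference from quiescent of the FGF genes, already at day 1. FGF1 is a ligand without a classical signal peptide that can bind every FGF receptor. Its gene (chromosome 18, 38838673 to 38918699 on mm10, minus strand) stood at 14.7 FPKM in the quiescent library and at 1.70, 1.46, 3.92, 8.59, 9.17, 11.0 and 11.3 FPKM at days 1, 2, 3, 4, 5, 7 and 10. The level was lowest at days 1 and 2 and higher from day 4 on, and the quiescent library had the highest value. The counting interval at day 3 (1.97 to 6.98 FPKM) overlapped those of days 1, 2 and 4, so its place among them is not settled. The log2 difference from quiescent was -2.54 at day 1 (-3.30 to -1.78), a level 8.65-fold below quiescent. It was -2.68 at day 2 (-3.55 to -1.80) and -1.68 at day 3 (-2.42 to -0.94). At day 10, Fgf1 stood at 76.8% of quiescent and its counting interval (9.06 to 14.0 FPKM) overlapped that of the quiescent library (11.6 to 18.5). So did the intervals of days 4, 5 and 7. The locus overlaps the row of Gm5820, which was at 0.823 FPKM or less. The span of Fgf1 over the 8 libraries, 2.68 on the log2 scale, was larger than that of 91.7% of the 9509 rows.

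Markers of Schwann cells, mural cells and endothelium were low at day 1 together with Fgf1. The Schwann cell list summed to 414 FPKM in the quiescent library, then to 134 and 184 at days 1 and 2, and to 432 at day 10, with 5 of its 10 genes lower at day 1. The mural cell (pericyte) list summed to 172 in quiescent, 42.3 at day 1 and 366 at day 10, with 10 of 12 genes lower at day 1. The endothelial list summed to 125 and 56.4 in quiescent and at day 1, where 2 of its 9 measured genes were lower. Most of the quiescent sum came from Tek (68.9, and 7.34 at day 1) and Eng (33.4 and 45.3). At day 3 the mural sum was 196 FPKM, of which Acta2 had 83.1, Des 36.0 and Tagln 35.7, while 6 of the 12 genes were still lower, among them Rgs5 (35.3 in quiescent, 7.03) and Kcnj8 (22.3 and 2.53). The Schwann and endothelial sums were 199 and 55.6 on that day. The part of these cells in the fall of Fgf1 was not tested.

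**Figure D2:**
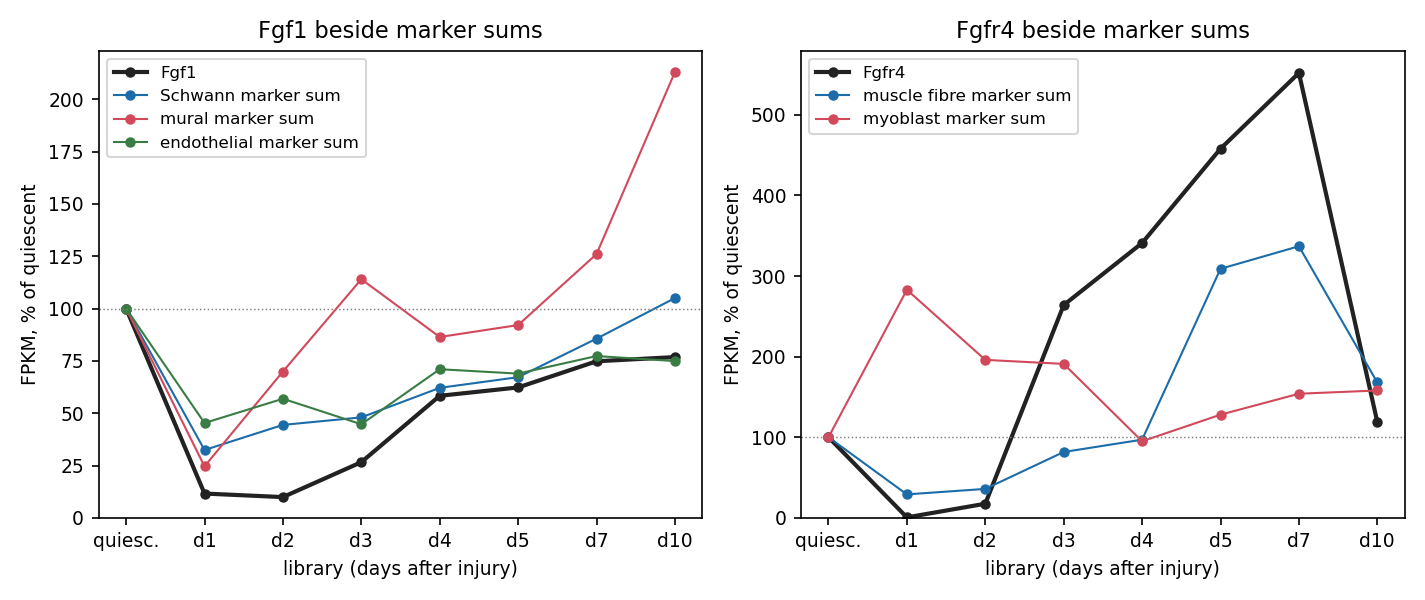
FPKM as a percent of the quiescent library (y axis) in each of the 8 libraries (x axis), 1 library per point, for Fgf1 beside the summed markers of Schwann, mural and endothelial cells (left) and for Fgfr4 beside the summed markers of muscle fibres and of satellite cells and myoblasts (right). Fgf1 was at 11.6% at day 1, when the Schwann and mural sums were at 32.4% and 24.6%, and Fgfr4 reached 552% at day 7, when the muscle fibre sum was at 337%. Fgfr4 at day 1, drawn at 0.570%, is a value at the floor of the table.

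Fgf2 was called lower later than Fgf1, from day 2, and until day 7. FGF2, or basic FGF, is a mitogen of fibroblasts and satellite cells that also lacks a signal peptide. Its gene (chromosome 3, 37348653 to 37404830, plus strand) stood at 12.2 FPKM in the quiescent library and at 9.55, 4.04, 1.95, 3.79, 1.63, 3.11 and 6.59 FPKM at days 1, 2, 3, 4, 5, 7 and 10. Day 1 overlapped quiescent in its counting interval, and days 2 to 7 lay below both. The log2 difference at day 1 was -0.32. It reached -1.39 at day 2 (-2.08 to -0.70), and at days 3 and 5 it stood at -2.16 (-2.95 to -1.36) and -2.33 (-3.05 to -1.60). At day 10 it was -0.80, with 54.1% of the quiescent level. From day 1 to day 2 the gene fell by 1.07 on the log2 scale, where 2.95% of all rows were lower. Because the intervals at days 2, 3, 4, 5 and 7 overlap, no order can be read among these 5 days. Day 10 (5.01 to 8.51 FPKM) also overlapped days 2, 4 and 7, and with day 10 as the baseline Fgf2 was called lower at days 3 and 5 only.

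The value of Fgf2 carries an uncertainty from its antisense neighbour. In GENCODE M21, 640 of the 6782 exon bases of Fgf2 are also exon of Nudt6 on the opposite strand, a gene of the NUDIX hydrolase family. The kit kept the strand, but whether the counting used it is not stated, so fragments of the shared stretch cannot be assigned with certainty. In the deposited loci the rows of Fgf2 and Nudt6 do not overlap. Nudt6 had 7.75 FPKM in quiescent and 6.48, 4.99, 3.33, 4.26, 4.25, 5.17 and 6.90 at the 7 days in order. It was thus lowest at day 3 and near its quiescent level at day 10, within a narrower range than Fgf2.

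Fgf18 was the most abundant ligand at rest. FGF18, of the FGF8 subfamily, is known for its roles in bone and cartilage. Its gene (chromosome 11, 33117431 to 33147400, minus strand) stood at 31.7 FPKM in the quiescent library and at 14.6, 13.6, 9.94, 25.6, 24.5, 17.1 and 18.5 FPKM at days 1, 2, 3, 4, 5, 7 and 10. Days 1 to 3 were low, days 4 and 5 were highest of the injured libraries, and the values of days 7 and 10 lay between. The counting interval of day 7 (14.8 to 19.8 FPKM) overlapped those of day 1 (12.6 to 17.0) and day 2 (11.3 to 16.2). That of day 10 (16.8 to 20.3) overlapped day 1, so these places are not settled. The log2 difference was -1.06 at day 1 (-1.30 to -0.83), -1.16 at day 2 (-1.43 to -0.89) and -1.58 at day 3 (-1.88 to -1.28). From day 3 to day 4 it rose by 1.28 (0.96 to 1.60), a step in which 3.44% of all rows were higher. At day 7 the difference from quiescent was -0.85, which became -1.07 and a call when the libraries were scaled to a common sum.

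Fgf7 kept the narrowest range of the ligands at 5 FPKM or more. FGF7, or keratinocyte growth factor, is made by mesenchymal cells and binds the IIIb splice form of FGFR2 on epithelia. Its gene (chromosome 2, 126034658 to 126091185, plus strand) stood at 17.2 FPKM in quiescent and at 15.1, 19.4, 25.7, 16.4, 14.2, 12.6 and 15.2 FPKM at days 1, 2, 3, 4, 5, 7 and 10. Day 3 stood above all other libraries in its counting interval (23.7 to 27.9 FPKM) and day 7 was lowest. The log2 difference at day 3 was 0.55, below the size of a call, and 0.30 under median-ratio scaling and 0.13 with a common sum. At day 2 its sign depended on the scaling, from 0.16 as deposited to -0.43 with a common sum. The locus overlaps the row of Fam227b, at 0.339 FPKM or less. The highest level was 2.05-fold the lowest, and 42.1% of rows had a smaller span. Day 3 is also where the macrophage markers summed highest (930 FPKM), and the part of those cells in the level of Fgf7 was not tested.

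Fgf10 was the least abundant of the 5 ligands and never reached 5 FPKM. FGF10 is the close relative of FGF7 known for limb and lung outgrowth. Its gene (chromosome 13, 118714699 to 118792573, plus strand) stood at 1.61 FPKM in quiescent and at 0.248, 0.185, 0.788, 1.44, 0.714, 1.18 and 1.78 FPKM at days 1, 2, 3, 4, 5, 7 and 10. The level was lowest at days 1 and 2, and quiescent and day 10 were highest. The interval in quiescent (1.33 to 1.92) did not overlap those of day 1 (0.136 to 0.416) and day 2 (0.0794 to 0.367). The log2 differences of -1.06 at day 1 and -1.14 at day 2 were of the size of a call, and the gene was called lower on both days when the minimum was 1 FPKM.

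**Figure D3:**
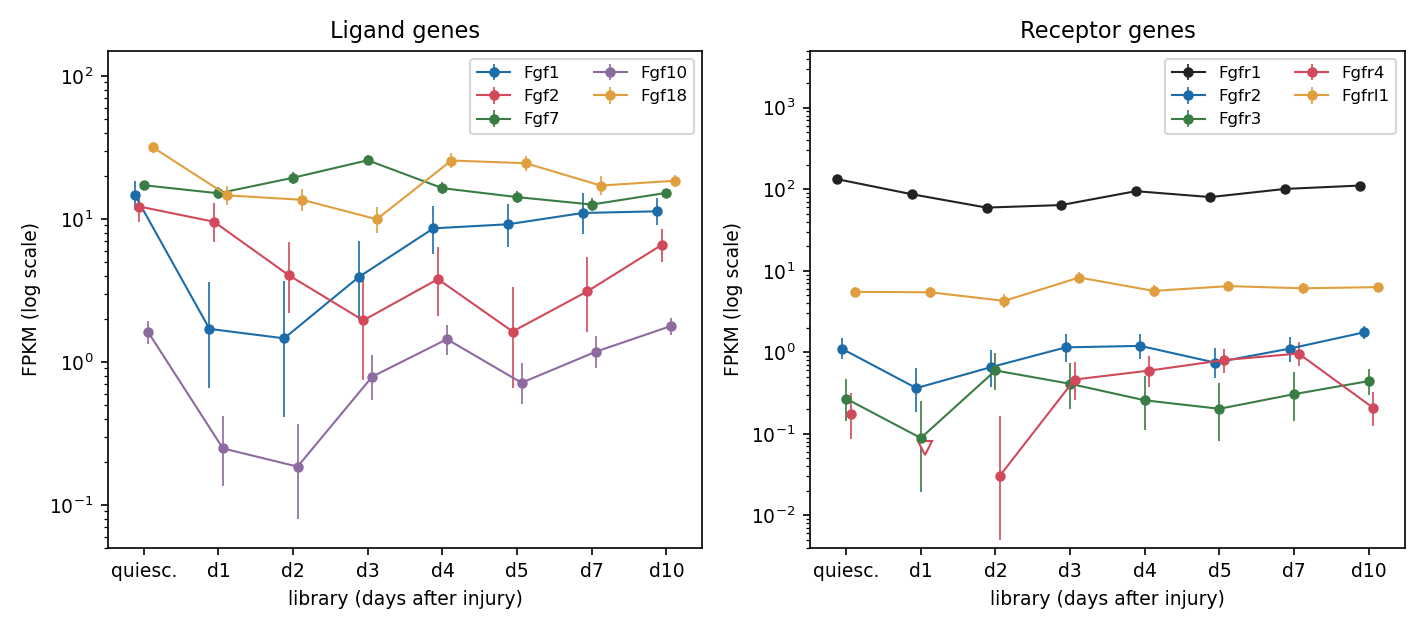
FPKM (y axis, log scale) of the 5 ligand genes (left) and the 5 receptor genes (right) in each of the 8 libraries (x axis), 1 library per point, with bars for the 95% counting interval. The open triangle is the upper limit of 0.0663 FPKM for Fgfr4 at day 1. Fgf1, Fgf2 and Fgf18 start high and dip at different days, Fgf7 stays between 12.6 and 25.7, and Fgfr1 lies far above the other receptors.

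The starts of Fgf2, Fgf18 and Fgf7 are shown because these 3 ligand genes followed different courses, with calls from day 2 to day 7 in Fgf2, from day 1 to day 3 in Fgf18 and on no day in Fgf7. Each line gives 250 bases before and 50 after the gene's start, from RefSeq on GRCm38.p6, the assembly of mm10, 5′ to 3′ on the strand of the gene. Capitals mark matches on either strand. The letters searched for AP-1 were TGANTCA. The second search was for the motif with the letters CCAAT. For the motif known as the GC box the letters were GGGCGG. The letters of the TATA box were TATAAA. No matches overlapped in these windows.
Fgf2, chr3:37348403-37348702, plus strand: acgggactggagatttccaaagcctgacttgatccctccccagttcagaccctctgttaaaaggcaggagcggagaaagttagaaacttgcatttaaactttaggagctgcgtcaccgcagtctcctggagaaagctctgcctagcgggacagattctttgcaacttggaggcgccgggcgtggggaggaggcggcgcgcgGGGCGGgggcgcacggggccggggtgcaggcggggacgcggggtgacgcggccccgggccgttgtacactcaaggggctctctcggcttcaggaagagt
Fgf18, chr11:33147351-33147650, minus strand: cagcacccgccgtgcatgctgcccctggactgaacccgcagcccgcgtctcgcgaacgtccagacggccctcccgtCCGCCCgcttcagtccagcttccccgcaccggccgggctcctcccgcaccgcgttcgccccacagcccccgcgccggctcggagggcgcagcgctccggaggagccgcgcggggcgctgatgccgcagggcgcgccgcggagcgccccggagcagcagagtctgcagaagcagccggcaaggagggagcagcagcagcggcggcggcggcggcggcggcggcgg
Fgf7, chr2:126034408-126034707, plus strand: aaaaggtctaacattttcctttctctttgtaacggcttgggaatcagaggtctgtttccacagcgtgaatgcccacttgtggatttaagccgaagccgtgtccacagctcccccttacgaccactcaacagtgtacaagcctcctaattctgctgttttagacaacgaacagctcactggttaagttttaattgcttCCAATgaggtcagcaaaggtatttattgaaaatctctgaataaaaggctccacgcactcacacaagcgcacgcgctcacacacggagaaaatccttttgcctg
The Fgf2 and Fgf18 windows each held 1 GC box, and the Fgf7 window held 1 CCAAT match and no GC box. Over all 32851 windows of this length, 35.7% held a GC box and 37.4% a CCAAT match. None of the 3 held the letters for AP-1 (7.81% of windows) or for the TATA box (13.6%). The share of G and C was 62.7% in Fgf2, 78.7% in Fgf18 and 45.7% in Fgf7, and the median window had 52.7%. Fgf18 held 47 CG pairs, Fgf2 24 and Fgf7 11, where the median was 7. These matches describe letters and are not binding sites.

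The ligand transcripts as a whole were lower in every injured library, and the leading gene changed. The 5 ligand genes summed to 77.4 FPKM in quiescent and to 41.3, 38.7, 42.3, 55.8, 50.2, 45.0 and 53.4 FPKM at days 1, 2, 3, 4, 5, 7 and 10. Fgf18 led in quiescent with 41.0% of the sum. Fgf7 led at days 1 to 3, with 36.6%, 50.1% and 60.7%. Fgf18 led again from day 4 on, with 45.9% at day 4 and 34.7% at day 10. At day 1 the levels of Fgf7 (13.8 to 16.6 FPKM) and Fgf18 (12.6 to 17.0) overlapped in their counting intervals, so which of them led is not settled there. Fgf10 was last in all 8 libraries. Fgf2 stood above Fgf1 at days 1 and 2 and below it in the other libraries, with overlapping intervals in quiescent and at days 2, 3 and 4.

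**Figure D4:**
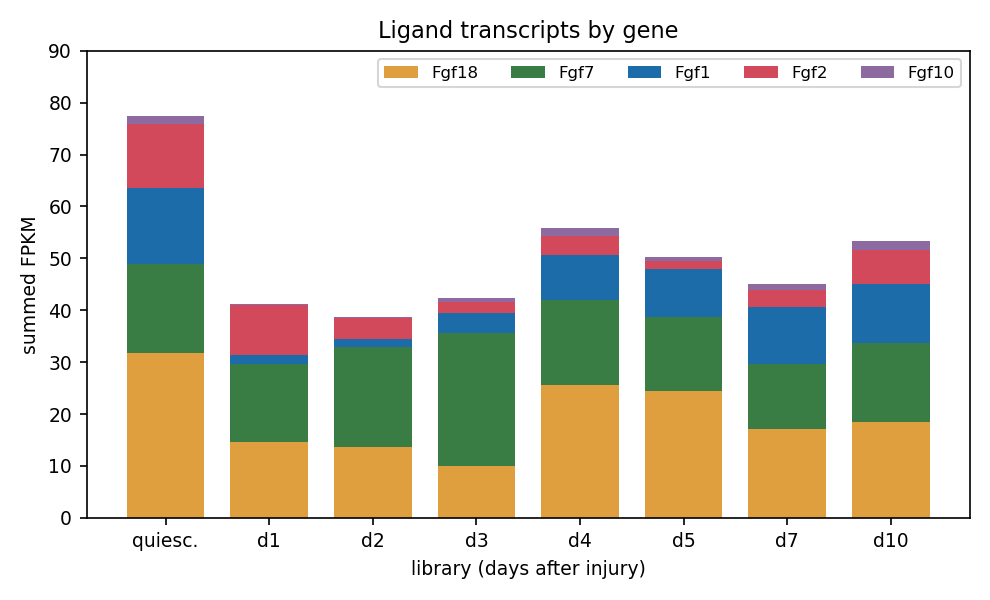
Summed FPKM of the 5 ligand genes (y axis) in each of the 8 libraries (x axis), 1 library per bar, with the part of each gene in colour. The sum is 77.4 in quiescent, lowest at day 2 (38.7) and 53.4 at day 10, and Fgf7 makes up 60.7% of it at day 3.

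Nearly all receptor transcripts came from Fgfr1. FGFR1 is the receptor typical of fibroblasts and other mesenchymal cells. Its gene (chromosome 8, 25518772 to 25575714, plus strand) stood at 133 FPKM in the quiescent library and at 86.9, 59.6, 64.0, 94.8, 80.2, 101 and 111 FPKM at days 1, 2, 3, 4, 5, 7 and 10. Days 2 and 3 were lowest, and no injured library reached the quiescent level. The log2 difference was -1.15 at day 2 (-1.23 to -1.08) and -1.05 at day 3 (-1.12 to -0.98), and -0.27 at day 10. With a common sum it was also called lower at days 1 (-1.15) and 5 (-1.10). At 1762 or more estimated fragments in every library, counting error is small here and does not include the spread between animals. Fgfr1 made up 96.9% to 99.5% of the summed FPKM of Fgfr1 to Fgfr4, and it was between 55.7-fold and 239-fold above the next receptor.

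Fgfrl1 stayed near its resting level. FGFRL1 binds FGFs and heparin but lacks the kinase domain of the other receptors. Its gene (chromosome 5, 108694229 to 108706950, plus strand) stood at 5.52 FPKM in quiescent and at 5.45, 4.28, 8.27, 5.67, 6.49, 6.10 and 6.31 FPKM at days 1, 2, 3, 4, 5, 7 and 10. Day 3 was highest and day 2 lowest, and the other libraries overlapped in their counting intervals. The log2 difference at day 3 was 0.51 as deposited and 0.12 with a common sum. The ratio of Fgfr1 to Fgfrl1 went from 24.2 in quiescent to 7.73 at day 3 and 17.6 at day 10, a ratio within a library that no scaling changes.

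Fgfr2, Fgfr3 and Fgfr4 were at low levels throughout, at 1.76 FPKM or less. Fgfr2 (chromosome 7, 130162451 to 130266808, minus strand), the receptor for FGF7 and FGF10 in its epithelial IIIb form, stood at 1.11 FPKM in quiescent and at 0.364, 0.658, 1.15, 1.20, 0.749, 1.11 and 1.76 FPKM at the 7 days in order. It was lowest at day 1 (0.187 to 0.639) and highest at day 10 (1.45 to 2.12), and the table does not separate its splice forms. Fgfr3 (chromosome 5, 33721724 to 33737068, plus strand), known for restraining bone growth, stood at 0.270 in quiescent and at 0.0889, 0.599, 0.411, 0.258, 0.203, 0.307 and 0.444. It rested on 3 to 31 estimated fragments, and its counting intervals overlapped except that day 1 (0.0192 to 0.254) lay under day 2 (0.342 to 0.975) and day 10 (0.302 to 0.629). In GENCODE M21, 998 of its 7158 exon bases are shared with an opposite-strand gene, and 314 of the 10328 of Fgfr2 with Ctbp2 on the same strand, so both values are uncertain.

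Fgfr4 was the receptor gene with the highest level after injury relative to rest, though it stayed under 1 FPKM and was not called. FGFR4 is known in mouse muscle from regenerating myoblasts. Its gene (chromosome 13, 55152818 to 55168759, plus strand) stood at 0.175 FPKM in quiescent, at the table's floor at day 1, and at 0.0307, 0.464, 0.597, 0.803, 0.967 and 0.208 FPKM at days 2, 3, 4, 5, 7 and 10. The level at day 1 was at most 0.0663 FPKM, the worth of 3 fragments. The values of days 3 to 7 were above those of the other libraries. Quiescent had a counting interval of 0.0859 to 0.318 FPKM and day 10 of 0.125 to 0.326. The intervals at days 4 (0.378 to 0.895), 5 (0.561 to 1.11) and 7 (0.688 to 1.32) overlapped neither. That of day 3 (0.263 to 0.757) overlapped both, so its place above them is not settled.

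Transcripts of muscle cells were present in the same libraries. The muscle fibre list summed to 12.2 FPKM at day 1, to 130 and 141 at days 5 and 7, the latter 337% of its quiescent sum, and to 70.5 at day 10, and 5 of its 9 measured genes were higher at day 7. The myogenic factor Myog was at the floor in quiescent and at 3.40, 1.76, 4.19, 3.61 and 1.41 FPKM at days 3, 4, 5, 7 and 10. The myoblast cadherin Cdh15 was at 0.0195 in quiescent and between 0.685 and 0.845 at days 3 to 7. Pax7, the defining gene of satellite cells, was at most 0.178. The genes of the satellite cell and myoblast list did not share 1 course. Myod1 was highest at day 3 (5.11 FPKM) and stood at 0.485 and 0.559 at days 4 and 7. Msc was highest at day 7 (18.1 FPKM). Chodl, Megf10 and Itga7 were highest at day 10, at 48.1, 1.74 and 12.3 FPKM. The whole satellite cell and myoblast list summed to between 85.7 and 255, with its highest sum at day 1, where Sdc4 (224 FPKM) and Vcam1 (20.5) made up most of it. Both are also known from fibroblasts, and Sdc4 is counted among the heparan sulfate genes as well. The part of muscle cells in the level of Fgfr4 was not tested.

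The other genes of the FGF family stayed under 5 FPKM. Of 17 further genes for FGF ligands or intracellular FGF homologous factors, 4 reached 1 FPKM in any library and 0 reached 5. Fgf16 stood at 3.51 FPKM in quiescent, was under 1 at day 2 (0.573) and stood at 3.48 by day 5. Fgf11, which encodes an intracellular FGF homologous factor, had 3.07 FPKM in quiescent, was listed at the floor on days 1 and 2, and had 1.58 by day 10. Fgf9 went from 1.01 to 0.114 at day 2 and 0.272 at day 10, and Fgf14, also a homologous factor gene, reached 1.22 at day 4. Fgf3 and Fgf6 were listed at the floor in all 8 libraries. The Klotho coreceptors of the hormone-like FGFs, Kl and Klb, stayed under 1 FPKM. Of the 11 coreceptors and binding partners, 4 reached 5 FPKM. On some day 1 was higher and 0 lower, beside 32.9% and 15.7% of all rows at 5 FPKM. Nrp1 was also called lower under median-ratio scaling, and Flrt2 and Nrp1 with a common sum, scalings that lower every gene after injury. The adhesion protein gene Cdh2 rose from 1.06 to 8.08 FPKM at day 10, a log2 difference of 2.14. The median of the 6 measured genes of this list was -0.36 at day 1 and 0.26 at day 10, where all 12898 measured genes had 0.06 and 0.08.

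Heparan sulfate core protein genes were called in both directions. Syndecans and glypicans carry the sugar chains that FGFs need to bind their receptors. Of 11 genes, 9 reached 5 FPKM, and 4 were higher on some day (Sdc1, Sdc3, Sdc4 and Gpc1) and 3 lower (Gpc3, Gpc6 and Hspg2), where 32.9% and 15.7% of all rows at 5 FPKM were. Sdc4 rose from 46.8 to 224 FPKM at day 1, Sdc1 from 7.41 to 37.4 at day 2 and Sdc3 from 4.19 to 24.6 at day 3, with log2 differences of 2.24, 2.19 and 2.30. Sdc1, Sdc3 and Gpc1 were still higher at day 10, at 21.6, 9.74 and 11.4 FPKM. The call of Gpc1 on that day (log2 difference 1.01) was lost under each scaling tried. Gpc3 fell from 102 to 27.4 at day 2 (-1.86), Gpc6 from 14.7 to 4.02 at day 1 (-1.65) and the perlecan gene Hspg2 from 173 to 77.7 at day 3 (-1.14). The same 4 genes were higher under each scaling, and Sdc2 joined the lower ones. Each scaling lowers every gene of the injured libraries. The list's median stayed between -0.22 and 0.12 as deposited. Sdc3 was highest at day 3, the day of the highest macrophage sum, and the part of those cells in it was not tested.

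Enzymes of heparan sulfate were called only downwards. Of 17 genes, 13 reached 5 FPKM, of which 4 fell on some day and 0 rose (15.7% and 32.9% of all rows at 5 FPKM). Under each of the scalings tried 7 fell. The scalings lower every gene of the injured libraries, and no share of all rows was taken under them. The 3-O-sulfotransferase gene Hs3st1 fell from 22.5 to 1.54 FPKM at day 2 (-3.21 on the log2 scale), and by day 10 it had 12.2. The heparanase gene Hpse fell from 11.6 to 2.15 at day 1 (-2.00), and Sulf2, an enzyme that removes 6-O-sulfates outside the cell, from 57.2 to 15.3 at day 1 (-1.83). Sulf2 was back at 75.1 at day 4. The median of the list was lowest at day 2 (-0.50), and -0.24 and -0.12 at days 1 and 10.

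Of the genes that relay the signal, 4 were called on some day. Of the 24 genes listed, 23 were in the table and 19 reached 5 FPKM, and 1 rose and 3 fell on some day, beside 32.9% and 15.7% of all rows at 5 FPKM. Under median-ratio scaling 0 rose and 6 fell, and with a common sum 0 rose and 7 fell. The shares of all rows were taken as deposited only, and both scalings lower every gene of the injured libraries. Map2k2, the gene of MEK2, a kinase that activates ERK, rose from 29.1 to 64.9 FPKM at day 2 (1.13), a call lost under each scaling tried. The phospholipase gene Plcg1 fell from 13.0 to 3.89 at day 2 (-1.52), Pik3r1, a regulatory subunit of PI 3-kinase, from 25.5 to 9.63 at day 1 (-1.32), and the adaptor gene Gab1 from 10.3 to 3.93 at day 1 (-1.20). Plcg1 was at 13.5 and Gab1 at 11.8 FPKM at day 10, near their quiescent levels. Frs2, the adaptor that binds FGF receptors directly, stayed between 3.33 and 6.37 FPKM. The list's median was between -0.24 and 0.04 as deposited, and between -0.67 and -0.03 with a common sum. That scaling itself shifts log2 FPKM of every gene by between -0.63 (day 2) and -0.03 (day 10).

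Feedback inhibitors and targets of FGF signalling were in part lower early, and some were higher at days 7 and 10. Of the FGF ligand and receptor genes, Fgf2 was still called lower at day 7, and 0 were called at day 10. Of 17 genes, 13 reached 5 FPKM. At day 1, 2 were higher and 2 lower, beside 22.5% and 12.5% of rows. At day 2, 1 was higher and 4 lower, beside 23.7% and 10.9%. At day 3, 1 was higher and 1 lower, beside 15.7% and 8.26%. Days 4 and 5 had 0 higher, with 2 lower at day 4 (2.16% of rows) and 1 at day 5 (4.61%). At day 7, 2 were higher (Dusp6 and Etv4) and 1 lower, beside 4.01% and 2.45%. At day 10, 3 were higher and 0 lower, beside 3.09% and 1.21%. The 3 higher at day 10 were Dusp6, Etv4 and Spry4. Dusp6, the ERK phosphatase gene, stood at 10.00 FPKM in quiescent and at 19.6, 13.0, 15.4, 8.41, 14.2, 26.1 and 41.3 at the 7 days in order, with a log2 difference of 1.94 at day 10. Etv4, an ETS transcription factor gene, stood at 4.97 in quiescent and at 3.90, 8.28, 8.01, 3.07, 5.43, 13.7 and 21.4, with 1.90 at day 10. Spry4, a Sprouty gene, had 9.67 FPKM in quiescent, 2.63 at its lowest on day 2 and 21.0 by day 10. Its log2 differences were -1.56 at day 2 and 1.04 at day 10, and the latter call was lost under median-ratio scaling and kept with a common sum. The mural marker sum was 24.6% of quiescent at day 1 and 213% at day 10, where Rgs5 (74.0 FPKM), Acta2, Myh11 and Tagln were higher, and the part of mural cells in these levels was not tested.

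Etv5, the relative of Etv4, reached 11.2 FPKM at day 10 from 5.85 and was not called. Spry1 fell from 80.1 to 23.9 FPKM at day 2 (-1.70), and its level by day 10 was 79.1. Il17rd, which encodes the FGF antagonist SEF, fell from 5.37 to 1.29 at day 2 (-1.48), with 5.90 by day 10. Spred1, a Sprouty relative, rose from 13.8 to 47.8 at day 1 (1.72), with 17.5 by day 10. The median of the 14 measured genes was -0.43 at day 2 and 0.37 at day 10, where all measured genes had 0.11 and 0.08. Under median-ratio scaling the day 2 median was -0.76, and with a common sum -0.99. These scalings shift log2 FPKM of every gene at day 2 by -0.37 and -0.63. The 2 medians are thus not to be set against the 0.11 of all genes as deposited. ERK is reached by many receptors, so these transcripts are not a readout of FGF receptors alone.

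**Figure D5:**
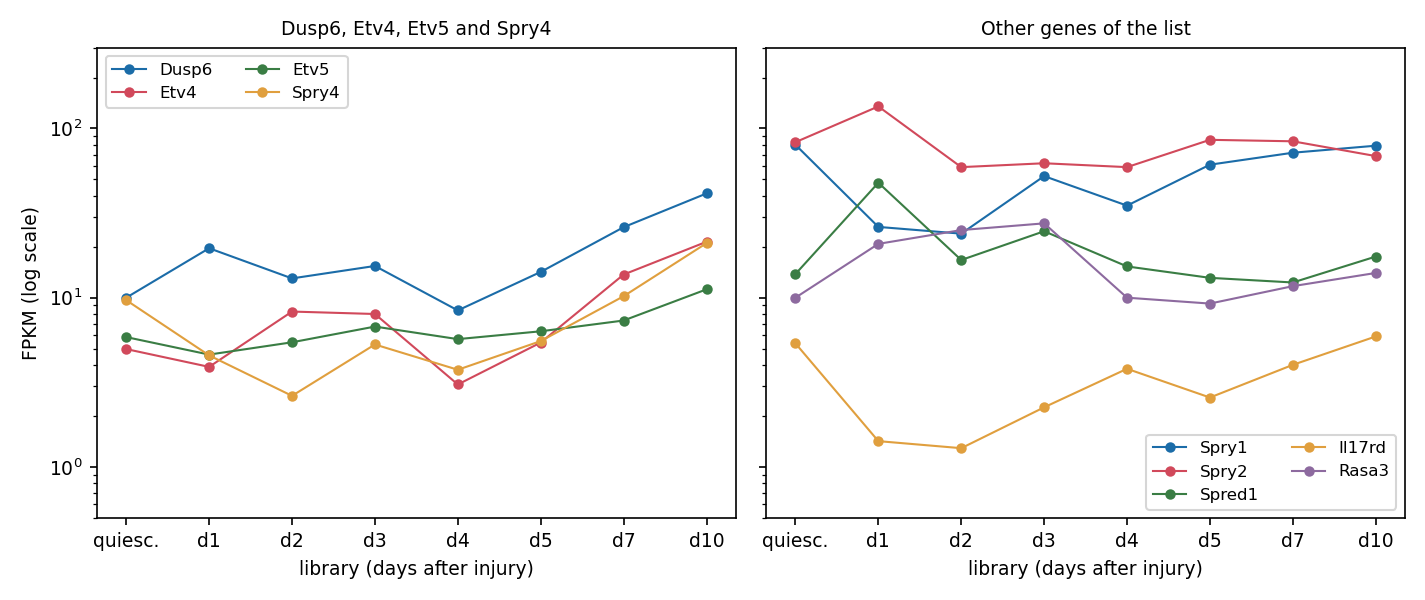
FPKM (y axis, log scale) of feedback inhibitors and targets in each of the 8 libraries (x axis), 1 library per point. Dusp6, Etv4, Etv5 and Spry4 (left) are highest at day 10, at 41.3, 21.4, 11.2 and 21.0 FPKM. Spry1, Spry2, Spred1, Il17rd and Rasa3 (right) stand at 79.1, 68.7, 17.5, 5.90 and 14.0 FPKM there, and Il17rd is also highest on that day. Genes not drawn include Etv1 and Spred3, also highest at day 10 (3.82 and 5.24 FPKM).

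The genes with the most similar courses were looked up for the 4 FGF genes that reached 5 FPKM and spanned 1 or more on the log2 scale, over 8 libraries and among 5304 genes. Likeness is Pearson's r of log2(FPKM + 1), given as a description, since the libraries share normalisation and the best of many genes is always close. Fgf1 was most like Gpc3 (r = 0.993, Spearman's rho = 0.93), Cd55 (0.992 and 0.98) and Nbl1 (0.991 and 0.83). Gpc3 is a glypican, Cd55 a complement regulator and Nbl1 a BMP antagonist gene. Cd55 had 118 FPKM in quiescent, 23.7 at its lowest on day 2, and 101 by day 10. Fgf2 was most like the insulin receptor substrate gene Irs2 (r = 0.985, rho = 0.98), Rab7 (0.981 and 0.95) and Pacsin2 (0.965 and 0.95). Irs2 was at 11.5 FPKM in quiescent and at 1.47 at day 5. Fgf18 was most like the noncoding gene Snhg9 (r = 0.946, rho = 0.90), the antiproliferative gene Tob1 (0.938 and 0.95) and the transcription factor gene Klf2 (0.934 and 0.98). Klf2 stood at 371 in quiescent and 107 at day 2. Fgfr1 was most like the netrin gene Ntn4 (r = 0.992), the complement gene C3 (0.990) and Osbpl5 (0.988), each with a rho of 1.00. C3 had 816 FPKM in quiescent, 182 at its lowest on day 2, and 567 by day 10.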

How the data were processed

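RNA was sequenced from FACS-purified mesenchymal progenitors, and the authors deposited 1 table of FPKM values, 1 column per library. The tools named in the submitters' processing notes are bcl2fastq, Bowtie2, TopHat2 and Cufflinks, and the build is mm10. No version, annotation or strand setting is given there. Since FPKM is scaled to a library's total, abundant genes can shift all others. Each column was matched to its time point by the library's description.

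Depth was estimated from 2088 genes with 1 transcript over 1500 bp in GENCODE M21: FPKM times length less 150 bp fell within 0.15 of a whole number of fragments for 77.5% to 81.5% of low values (30% by chance). Fragments per gene used the shortest coding transcript, which widens the intervals. Values of 0.001 were read as a floor. Starts were raised by 1 to count from 1. The depth estimate was tested on simulated data at depths above those of most libraries here. The call rule was tested on simulated data with counting noise only, and not at fragment counts as low as the lowest of Fgf1 and Fgf2. Python 3.11.15, numpy 2.4.6, pandas 2.3.3 and scipy 1.17.1 were used.

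With 1 library per time point no test was made. The 10 genes, 6 pathway lists and 10 cell type lists were chosen with earlier results of these data known. Genes named from a pathway list were the 3 with the largest called rise and the 3 with the largest called fall at any day, and for each FGF gene reaching 5 FPKM and spanning 1 on the log2 scale the 3 with the highest r among rows of 200 bp or more with 5 FPKM and a span of 1. Other list genes with values in the text were picked after their values were seen. Alternatives were pseudocounts of 0.1 and 0.01 FPKM against 1, a minimum of 1 FPKM or none against 5, 3 scalings, day 10 as the baseline and, added after seeing the data, leaving out the day 3 or the day 5 library.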

Additional observations from a re-analysis of the deposited data

How the results depend on the processing

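No paired analysis was possible because each time point has 1 library. With pseudocounts of 0.1 and 0.01 FPKM, lower minimums and 3 scalings, 0 FGF genes were higher than quiescent on any day and 4 or 5 were lower, against 4 as reported. The scalings lowered every injured library against quiescent, so they could add lower calls but no higher ones. Leaving out the day 3 or the day 5 library, chosen after seeing the data, left 4 lower. With the day 10 library as the baseline, 2 genes (Fgf1 and Fgf2) were lower on some day and 5 gene-by-day values were lower, against 4 and 13, so the other 8 calls need the quiescent library. At days 2 and 3, Fgfr1 was then at -0.89 and -0.78 and Fgf18 at -0.42 and -0.83, and Fgf2 at days 2, 4 and 7 at -0.59, -0.66 and -0.88. Steps between neighbouring injured days numbered 2 as reported, 3 under median-ratio scaling or a lower minimum, and 4 with either smaller pseudocount or either common sum. At day 2 the ligand sum was 38.8% of quiescent under median-ratio scaling and 32.2% with a common sum, against 38.7 of 77.4 FPKM as deposited, and the receptor sum was 45.1% as deposited, 35.0% and 29.1%. None of the 13 called differences changed sign, though only day 10 as the baseline could have changed one. Low depth limits Fgf1 and Fgf2 at their lowest days (4 to 7 estimated fragments on the shortest transcript) and Fgfr3 and Fgfr4 throughout.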
